A study of Gallus gallus with 20 samples.

Results

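Mesenchyme of scale-forming skin at embryonic day 9 (E9sm) was compared with mesenchyme of feather-forming skin at embryonic day 7 (E7fm). The paper matches these as early stages at which both skins are still plastic. The arrays were chosen by their titles: 2 of the 20 arrays in the series carry E9sm RNA and 2 carry E7fm RNA. Levels were compared over 13009 genes with 1 symbol, and every difference below is E9sm minus E7fm on the log2 scale, so that +1 stands for a doubling.

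E7fm is the dermal layer of dorsal skin and E9sm that of metatarsal skin, a scale-forming skin of the foot. Both came from White Leghorn chicken embryos for which no genetic change or drug is given. The layers were parted with EDTA in a calcium- and magnesium-free solution, and the source labels call the RNA pooled without giving a number of embryos. By their titles the 2 arrays of each group are biological replicates. The study's methods count 3 mesenchymal arrays per group where the labels give 2 here, and the labels were followed. The other 16 arrays hold the matching epithelia (E7fe and E9se) and both layers at the later stage (E9fe, E9fm, E11se and E11sm), and they enter the limma fit through a shared estimate of the spread.

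The dermis tells the overlying epithelium which appendage to build. In skin recombined from different regions, it is the mesenchyme that fixes whether feathers or scales form. Its regional character is laid down early by transcription factors, among them HOX genes, which are read along the body axis and again along the limb, and T-box and LIM-homeobox factors of the limb bud. Metatarsal dermis descends from the hindlimb bud and dorsal dermis from the somites, so that the 2 groups differ in origin as well as in appendage.

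By its defining markers the tissue matched its label. The 14 fibroblast and dermis markers had a median level of 12.6 in E7fm and 12.9 in E9sm, with COL1A1, a chain of type I collagen, between 13.64 and 14.12 on all 4 arrays. The 28 epidermis and periderm markers had median levels of 5.39 and 5.96. EPCAM, an epithelial adhesion molecule, was at 5.41 and 5.83 in E7fm and at 6.93 and 6.66 in E9sm, against 13.16 and 13.03 in the E7fe arrays.

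Not all arrays stood where their labels put them. The E7fm arrays differed from each other by an SD of 0.304 over all probe sets and the E9sm arrays by 0.446. E9sm replicate 2 was nearer to each of the 3 E11sm arrays (SD of differences from 0.307 to 0.399) than to E9sm replicate 1. Of 560 genes at least 1 log2 unit apart between the E9sm arrays, the E11sm mean was nearer to replicate 2 in 535. The array labelled E9fm replicate 1 carried ZIC1, a zinc-finger factor of dorsal tissue, at 4.16, against 12.07 and 12.22 on the other E9fm arrays. The array labelled E9fe replicate 1 carried TWIST2, a bHLH factor of dermal progenitors, at 9.39, against 3.86 and 3.34 on the other E9fe arrays. Those 2 arrays belong to neither group compared here and enter the early difference only through the shared spread. Without them the SE was smaller for 121 of 141 named genes and larger for 20. E9fm replicate 1 also enters the E9fm mean in the later comparison. Counts are therefore also given with those 2 arrays left out (18 arrays) and with E9sm replicate 2 left out too (17 arrays). These choices were made after seeing the data. The array labelled E9fm replicate 1 stands out in limb and trunk genes, among them HOXA13 (8.49, against 3.77 and 4.37). Smaller adjusted p-values of such genes without that array follow in part from the choice to leave it out.

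Scale mesenchyme had more RNA of the hindlimb factor TBX4 and of the distal HOX genes HOXA13, HOXD12 and HOXD13. Feather mesenchyme had more RNA of HOXC9, of HOXA4, HOXA5, HOXA6, HOXB4 and HOXB5, of the transcription factors NKX6-1, FOXP2 and SIM1, and of embryonic globins. In all, 170 genes passed, that is, reached an adjusted p below 0.05 by limma, which is 1.31% of the genes. Of these, 89 were higher in E9sm (0.684%) and 81 lower (0.623%), with median differences of +2.04 and -1.98. A difference of at least 2 log2 units either way was found for 138 genes (1.06%), and 47 of the 89 and 39 of the 81 were that large. The 18 arrays gave 427 genes (3.28%), all 170 among them, with 227 higher (1.74%) and 200 lower (1.54%). The 17 arrays gave 388 genes. Leaving out a single array gave 25 genes without E7fm replicate 2, 57 without E7fm replicate 1, 62 without E9sm replicate 2 and 102 without E9sm replicate 1. Of the 62 genes 26 were among the 89 and 29 among the 81. Of the 51 named genes that passed, 17 still did without E9sm replicate 2. Those that did not include TBX4, HOXC9, HOXD13, PAX9, HOXA13, HOXB5, FOXP2 and SALL1. Without E9sm replicate 2, and with 17 arrays, E9sm replicate 1 stands alone in its group. From the E7fm mean that array lay at +4.06 for HOXD13, +4.98 for PAX9 and +4.73 for HOXA13. It lay at -4.73 for HOXC9, -4.72 for HOXB5 and -3.12 for FOXP2. The 17 arrays gave 175 higher and 213 lower genes. Scale skin was 2 days older than feather skin, so region and embryo age cannot be told apart in this comparison, and in bulk RNA fewer cells of a type and less RNA per cell cannot be told apart either.

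**Figure D1:**
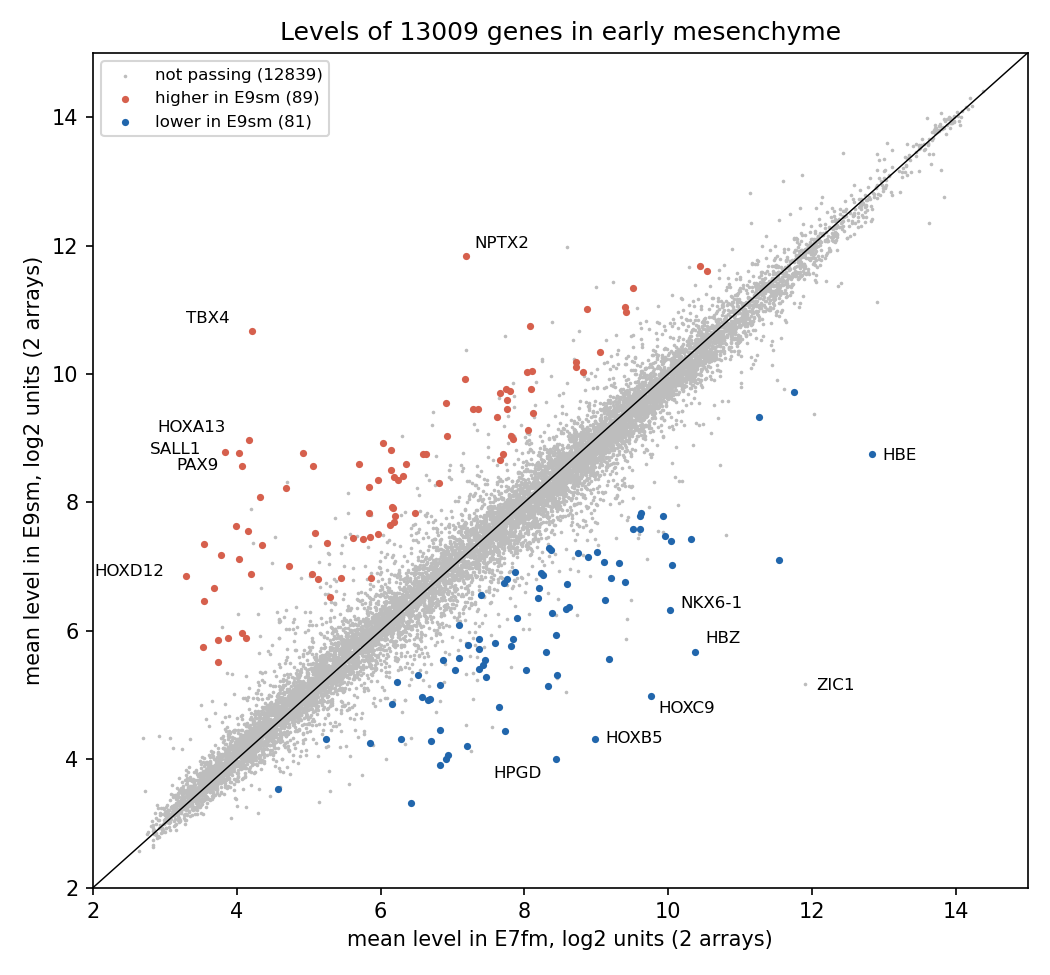
Mean level of each of 13009 genes in E7fm (x axis) and E9sm (y axis), in log2 units over 2 arrays each; the line marks equal levels, red points passed as higher in E9sm (89 genes) and blue points as lower (81 genes). TBX4 lies farthest above the line among the passing genes and HOXC9 farthest below, while ZIC1 lies farther from the line than any other gene but did not pass.

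TBX4, the T-box factor that specifies the hindlimb, had the largest passing difference. It was at 4.31 and 4.12 on the E7fm arrays and at 11.16 and 10.17 on the E9sm arrays (+6.45, SE 1.20, adjusted p = 0.0176). The E7fm levels lay near the 25th percentile of all levels on these arrays, 4.14, so no fold is given. Both E9sm arrays lay far above both E7fm arrays. Groups that do not overlap were common, however, at 43.3% of all genes.

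Of 49 limb regulators on the array, 7 passed as higher in E9sm, 1 as lower and 41 did not pass. Their median difference was +0.35, against -0.01 over all genes, of which 0.684% passed as higher and 0.623% as lower. SALL1, a zinc-finger factor of limb and kidney, was at 3.79 and 3.88 in E7fm and at 8.45 and 9.12 in E9sm (+4.95, SE 1.08, adjusted p = 0.0417). A second probe set of SALL1 gave +0.34 without passing. PAX9, a paired-box factor expressed in the distal limb, was at 4.13 and 3.92 against 9.00 and 8.53 (+4.74, SE 1.0, adjusted p = 0.0361). For both genes the E7fm levels lay below that 25th percentile.

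LHX9, a LIM-homeobox factor of limb outgrowth, was at 4.28 and 4.12 in E7fm and at 7.32 and 6.46 in E9sm (+2.69, SE 0.46, adjusted p = 0.0107). All 5 of its probe sets were higher in E9sm and 4 of them passed. The remaining limb regulators that passed as higher, named after their values were seen, were MAB21L1 (+1.90), ALX1 (+1.78) and LHX2 (+1.75). The 1 that passed as lower was IRX4, an Iroquois homeobox factor, at 8.63 and 8.25 in E7fm and 5.47 and 6.40 in E9sm (-2.50, SE 0.33, adjusted p = 0.0013). A second probe set of IRX4 also passed (-3.06), and the third gave +0.16 without passing.

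PITX1, which acts with TBX4 in hindlimb identity, did not pass with 20 arrays. It was at 7.61 and 7.85 in E7fm and at 11.28 and 9.91 in E9sm (+2.87, SE 0.95, adjusted p = 0.308), and its adjusted p was 0.00104 with 18 arrays and 0.000294 with 17. The groups did not overlap, and the level on the array labelled E9fm replicate 1 was 10.71, against 7.41 and 7.13 on the other E9fm arrays. LMX1B, the dorsal limb determinant, behaved in the same way, with +2.33 and an adjusted p of 0.30 with 20 arrays and 0.00042 with 18. TBX5, the forelimb counterpart of TBX4, lay between 5.02 and 5.25 on all 4 arrays (-0.07), and TBX3, a T-box factor of limb margins, differed by +0.09. With 18 arrays 14 limb regulators passed as higher and 3 as lower, against 1.74% and 1.54% of all genes. The lower ones were IRX4, MEIS2 (-2.04) and TBX15 (-1.85).

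**Figure D2:**
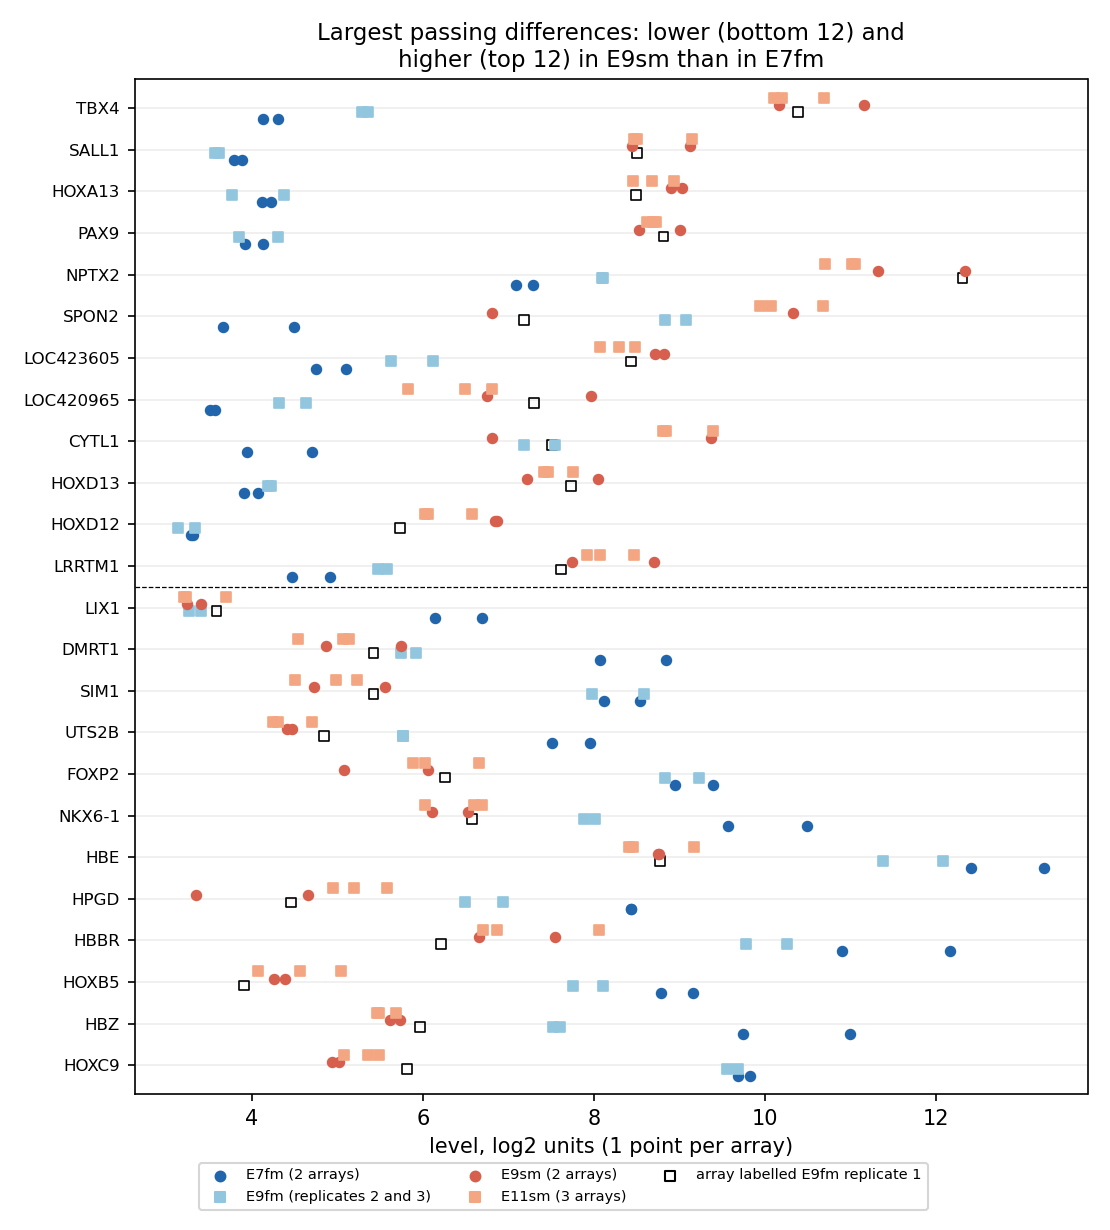
Level in log2 units (x axis) of the 12 genes with the largest passing difference each way, 1 point per mesenchyme array; circles are E7fm (blue) and E9sm (red), filled squares E9fm replicates 2 and 3 (pale blue) and E11sm (pale red), and the open square is the array labelled E9fm replicate 1. For TBX4, SALL1, HOXA13 and PAX9 the open square lies among the scale arrays, and for SPON2 and CYTL1 the E9sm arrays are more than 2 log2 units apart.

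The HOX genes that passed differed in direction with their number in the cluster. Of 17 HOX genes numbered 1 to 8, which act toward the head end, 5 passed as lower in E9sm and 0 as higher, with a median difference of -1.54. Of 12 numbered 9 to 13, which act toward the tail and the limb tip, 3 passed as higher and 1 as lower, with a median of +0.38. With 18 arrays these counts were 10 lower and 0 higher of the 17, and 1 lower and 3 higher of the 12. Over all genes 0.684% passed as higher and 0.623% as lower with 20 arrays, and 1.74% and 1.54% with 18. Most HOX genes did not overlap between the groups, 26 of 29, against 43.3% of all genes.

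HOXA13, which patterns the limb tip, was at 4.23 and 4.12 in E7fm and 8.90 and 9.03 in E9sm (+4.79, SE 0.96, adjusted p = 0.0267). HOXD12 was at 3.29 and 3.31 against 6.86 and 6.84 (+3.55, SE 0.54, adjusted p = 0.00514). HOXD13, its neighbour at the end of the cluster, was at 4.07 and 3.91 against 8.05 and 7.21 (+3.64, SE 0.78, adjusted p = 0.039). In all 3 the E7fm arrays lay at 4.23 or below. Their nearest neighbours HOXA11 (7.8 and 7.9 against 9.9 and 9.4, +1.80) and HOXD11 (6.6 and 6.1 against 7.6 and 8.1, +1.51) lay higher without passing, at adjusted p of 0.15 and 0.34, and passed in neither the 20 nor the 18 arrays.

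Within the HOXD cluster HOXD4 (-1.27), HOXD8 (-0.86) and HOXD10 (-1.15) lay lower in E9sm without passing. The differences in that cluster followed the order of the genes, except that HOXD10 lay below HOXD8. In the HOXA cluster HOXA9 (+0.42) and HOXA10 (+0.13) did not pass either.

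HOXC9, a gene of the thoracic trunk, had the largest passing difference of the lower genes. It was at 9.82 and 9.69 in E7fm and at 5.02 and 4.94 in E9sm (-4.77, SE 0.83, adjusted p = 0.0114). In the epithelium of the same skins it was not lower in scale, with 9.28 and 9.25 in E7fe and 9.76 and 9.97 in E9se. The test of the difference between the layers gave -5.38 (SE 1.17, adjusted p = 0.057), which did not pass with 20 arrays and did with 18 (adjusted p = 1.0e-06).

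HOXB5 was at 9.16 and 8.79 in E7fm and 4.25 and 4.38 in E9sm (-4.66, SE 0.98, adjusted p = 0.0361), and HOXB4 at 6.70 and 6.95 against 4.0 and 3.81 (-2.92, SE 0.47, adjusted p = 0.0073). HOXA5 was at 8.23 and 8.37 against 5.94 and 5.40 (-2.63, SE 0.25, adjusted p = 4.41e-05), the smallest adjusted p among the HOX genes. Of its 2 probe sets only this one passed, and the second gave -0.07. HOXA4 (-2.23) and HOXA6 (-1.94) also passed. HOXB3, HOXB6 and HOXB7 differed by -3.02, -2.10 and -1.61 and passed with 18 and with 17 arrays but not with 20. HOXB1 (-0.06), HOXB8 (+0.0035) and HOXB13 (+0.07) lay close to equality, and the HOXB cluster, with a median of -1.61 over 9 genes, was the lowest of the 4 clusters.

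**Figure D3:**
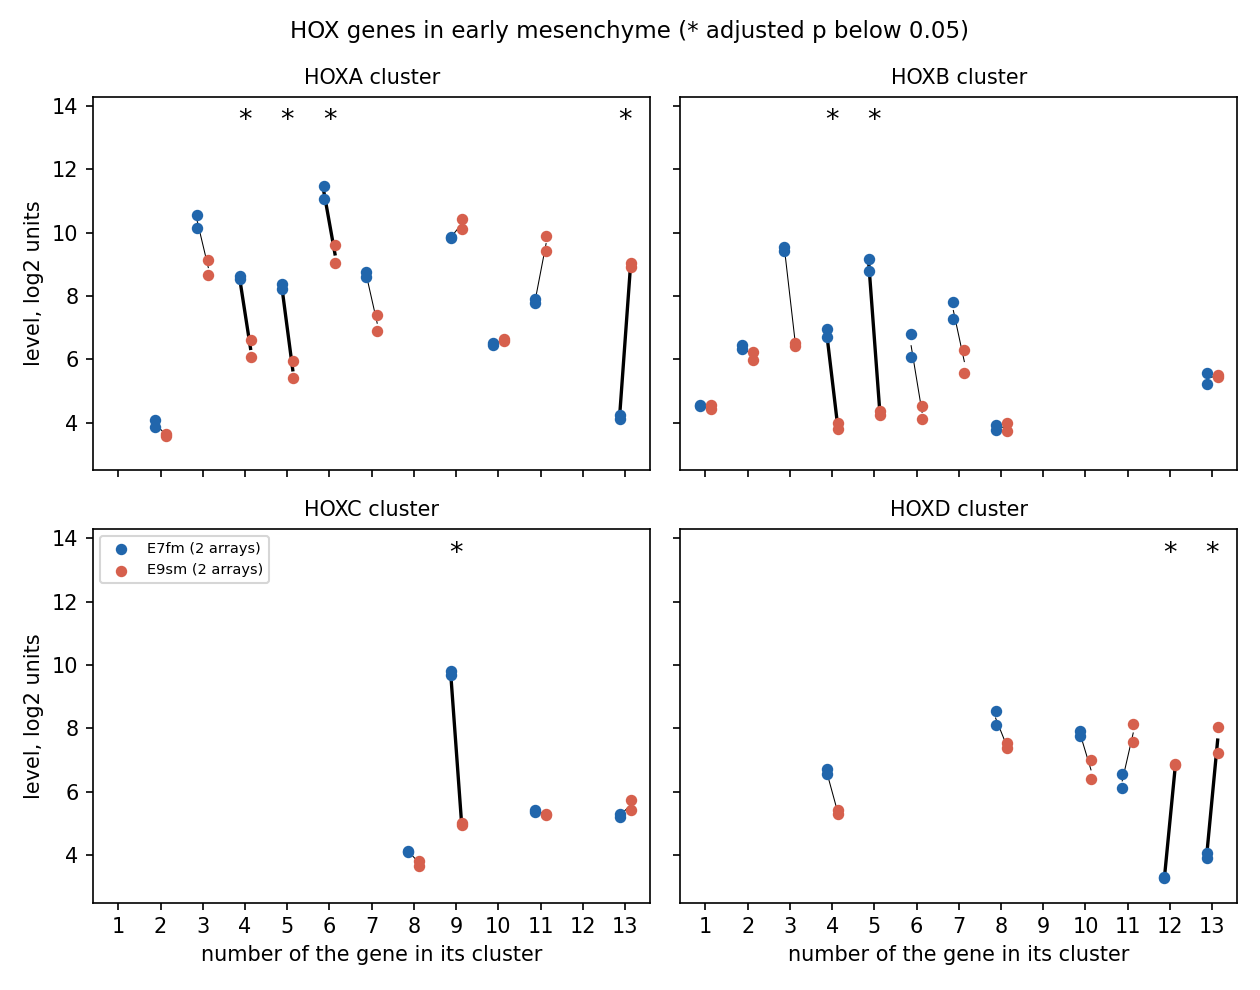
Levels of the 29 HOX genes on the array, by cluster (panels) and by number in the cluster (x axis), in log2 units (y axis); blue points are the 2 E7fm arrays, red points the 2 E9sm arrays, lines join the group means, and a star and a heavy line mark genes that passed. Stars over HOXA4 to HOXA6, HOXB4, HOXB5 and HOXC9 mark lower genes, and those over HOXA13, HOXD12 and HOXD13 higher ones.

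ZIC1 differed more than any gene in the comparison, yet did not pass with 20 arrays. It was at 11.78 and 12.04 in E7fm and at 3.75 and 6.59 in E9sm (-6.74, SE 1.78, adjusted p = 0.12), and its adjusted p was 3.5e-05 with 18 arrays. ZIC1 is the gene by which the array labelled E9fm replicate 1 was singled out above, so the value with 18 arrays is no independent support. The E9sm arrays were far apart, replicate 2 lying with the E11sm arrays at 5.67 to 6.99, but neither came near E7fm. Of 61 trunk and dermal transcription factors 3 passed as lower, 0 as higher and 58 did not pass, with a median difference of +0.04. The shares of all genes were 0.623% lower and 0.684% higher. With 18 arrays 7 passed as lower and 3 as higher, against 1.54% and 1.74%.

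NKX6-1, a homeobox factor best known from neural tube and pancreas, was at 9.57 and 10.49 in E7fm and 6.11 and 6.53 in E9sm (-3.71, SE 0.51, adjusted p = 0.0019). FOXP2, a forkhead factor, was at 8.95 and 9.40 against 6.06 and 5.08 (-3.61, SE 0.70, adjusted p = 0.0218). SIM1, a bHLH-PAS factor expressed in somites, was at 8.12 and 8.54 against 5.55 and 4.73 (-3.19, SE 0.66, adjusted p = 0.0331). Its other probe sets gave -1.72 and +0.09 without passing. In each of these 3 genes both E9sm arrays lay at least 2 log2 units below both E7fm arrays.

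General dermal regulators did not pass. TWIST2 was at 12.74 and 12.73 in E7fm and 12.96 and 12.60 in E9sm (+0.04), and TWIST1 differed by -0.45 with E9sm arrays at 10.4 and 11.9. EN1 (-0.88) and FOXC2 (+0.07) did not pass. MEOX2, a homeobox factor of somite and limb muscle precursors, was at 8.75 and 8.43 against 11.82 and 12.14 (+3.39) and passed with 18 arrays (adjusted p = 2.4e-05) but not with 20 (adjusted p = 0.35).

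NPTX2, a neuronal pentraxin that clusters receptors at synapses, was at 7.09 and 7.29 in E7fm and 12.34 and 11.32 in E9sm (+4.64, SE 0.94, adjusted p = 0.0281), with all 3 of its probe sets higher. LRRTM1, a leucine-rich adhesion protein, was at 4.91 and 4.47 against 7.75 and 8.71 (+3.54, SE 0.52, adjusted p = 0.0038). LOC423605 (+3.84) and LOC420965 (+3.82), which the annotation names only by number, were higher on both E9sm arrays.

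SPON2, a matrix protein of the spondin family, was at 4.49 and 3.67 in E7fm and at 6.81 and 10.33 in E9sm (+4.49, SE 0.78, adjusted p = 0.0127). CYTL1, a secreted cytokine-like protein of cartilage, was at 4.71 and 3.95 against 6.81 and 9.37 (+3.76, SE 0.59, adjusted p = 0.0059). In both the E9sm arrays were more than 2 log2 units apart, with replicate 2 at the level of the E11sm arrays. SPON2 was, like TBX4 and HOXC9, among the genes that no longer passed without E9sm replicate 2 (adjusted p = 0.0817), and CYTL1 still did (adjusted p = 0.0414).

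Among lower genes outside the HOX family, HPGD, which degrades prostaglandins, was at 8.43 and 8.44 in E7fm and 3.35 and 4.66 in E9sm (-4.43, SE 0.56, adjusted p = 0.000845). UTS2B, a urotensin-family peptide, was at 7.51 and 7.96 against 4.47 and 4.41 (-3.30, SE 0.29, adjusted p = 3.1e-05). LIX1 was at 6.14 and 6.70 against 3.40 and 3.24 (-3.10, SE 0.21, adjusted p = 1.29e-06). These 3 genes passed with any alternative set of arrays given above. DMRT1, a factor of gonadal sex determination, was at 8.08 and 8.84 against 5.75 and 4.87 (-3.15, SE 0.30, adjusted p = 5.0e-05), but only 3 of its 7 probe sets shared that direction and 1 passed.

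Of 38 FGF and EDA genes 0 passed by limma with 20 arrays, with 1 higher and 2 lower with 18, against 1.31% and 3.28% of all genes. The Notch list (22 genes), the hedgehog list (19) and the retinoic acid list (23) also had 0 passing genes with 20 arrays, and 0, 1 and 3 with 18. With 20 arrays these counts lie near the share of all genes. FGF10, a mesenchymal ligand that acts on epithelium, was at 6.14 and 4.60 in E7fm and at 7.09 and 8.41 in E9sm (+2.38, SE 0.55, adjusted p = 0.0586), with an adjusted p of 0.0426 with 18 arrays and 0.339 with 17. The E9sm arrays lay above both E7fm arrays, which were themselves more than 1 log2 unit apart. EDAR, the ectodysplasin receptor, lay between 4.4 and 4.5 on all 4 arrays.

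Over all genes 0.684% passed as higher and 0.623% as lower. Of 61 BMP and TGF-beta genes, 1 passed as higher and 0 as lower, with a median difference of +0.02. The gene was NBL1, a secreted BMP antagonist, at 9.62 and 9.20 in E7fm and 10.92 and 11.01 in E9sm (+1.56, SE 0.35, adjusted p = 0.0497). CHRDL1, a chordin-like antagonist, was at 4.69 and 3.76 against 6.52 and 8.21 (+3.14, adjusted p = 0.075, and 0.0013 with 18 arrays). The activin subunit INHBB (-3.04), BMP3 (+1.78) and GDF10 (+2.93) passed with 18 and with 17 arrays but not with 20. The ligands BMP2 (+0.03), BMP4 (+1.01) and BMP7 (-0.50) and the antagonists NOG (+0.73), GREM1 (-0.29) and FST (-0.57) passed with neither 20 nor 18 arrays. In this list 4 genes passed as higher and 1 as lower with 18 arrays, against 1.74% and 1.54% of all genes.

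Of 71 WNT genes, 1 passed as higher and 0 as lower, against 0.684% and 0.623% of all genes. With 18 arrays 3 passed as higher and 3 as lower, against 1.74% and 1.54%. PRICKLE1, a component of planar cell polarity, was at 8.90 and 8.74 in E7fm and 10.02 and 10.04 in E9sm (+1.21, SE 0.26, adjusted p = 0.0366). The ligands WNT5A (-0.35) and WNT11 (-0.73), the effectors CTNNB1 (-0.13) and LEF1 (-0.29) and the inhibitors SFRP1 (-0.27), SFRP2 (+0.56) and FRZB (+1.0) did not pass. WNT2B was at 10.8 and 10.4 against 9.0 and 9.1 (-1.52, adjusted p = 0.31). CRABP1, a retinoic acid carrier, was at 11.62 and 11.57 against 13.07 and 12.94 (+1.41) and passed with 18 arrays (adjusted p = 0.008) and with 17 (adjusted p = 0.0353) but not with 20.

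Of 105 dermal matrix genes 3 passed as higher, 3 as lower and 99 did not pass, against 0.684% and 0.623% of all genes, with a median of +0.21. With 18 arrays 13 passed as higher and 7 as lower, against 1.74% and 1.54%. THBS2, a thrombospondin that binds matrix and cells, was at 7.24 and 7.33 in E7fm and 8.82 and 10.08 in E9sm (+2.17, SE 0.35, adjusted p = 0.00772). FBLN2, a fibulin, was at 8.72 and 9.01 against 10.79 and 11.23 (+2.14, SE 0.46, adjusted p = 0.039), with both probe sets passing. The main collagens COL1A1 (+0.28), COL1A2 (+0.39) and COL3A1 (+0.37), fibronectin FN1 (-0.19) and periostin POSTN (+0.04) did not pass.

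On the lower side, LOXL3, which crosslinks collagen and elastin, was at 7.58 and 7.71 in E7fm and 4.76 and 4.86 in E9sm (-2.84, SE 0.35, adjusted p = 0.000684), with both probe sets passing. FRAS1, a basement membrane protein, was at 6.76 and 8.08 against 5.76 and 5.17 (-1.96, SE 0.37, adjusted p = 0.0208), and 1 of its 4 probe sets passed. WISP2, a matricellular CCN protein, had the smallest passing difference (-0.84, SE 0.19, adjusted p = 0.0475). The small proteoglycan BGN was at 11.06 and 10.55 against 6.32 and 8.67 (-3.31) and did not pass with 20 arrays (adjusted p = 0.26).

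Among 55 matrix proteases and inhibitors 2 passed as higher and 1 as lower, against 0.684% and 0.623% of all genes. With 18 arrays 5 passed as higher and 3 as lower, against 1.74% and 1.54%. ADAMTS17 was at 6.46 and 5.84 in E7fm and 7.82 and 9.80 in E9sm (+2.66, SE 0.59, adjusted p = 0.0471). PLAU, the urokinase that activates plasminogen, was at 5.88 and 5.80 against 7.82 and 7.84 (+1.99, SE 0.38, adjusted p = 0.0208). ADAM12, a metalloprotease of mesenchyme and muscle, was at 9.62 and 9.41 against 7.20 and 7.98 (-1.92, SE 0.41, adjusted p = 0.0389). The PLAU arrays were tight on both sides, but only 1 of its 3 probe sets passed and the others gave +0.12 and -0.05. The E9sm arrays of ADAMTS17 were nearly 2 log2 units apart.

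Adhesion and guidance molecules went both ways. Of 126, 4 passed as higher and 3 as lower, against 0.684% and 0.623% of all genes. With 18 arrays 8 passed as higher and 6 as lower, against 1.74% and 1.54%. SLIT2, a repellent ligand for ROBO receptors, was at 7.00 and 6.83 in E7fm and 9.71 and 9.38 in E9sm (+2.63, SE 0.32, adjusted p = 0.000625). CDH13, a cadherin anchored to the membrane by lipid, was at 7.10 and 7.26 against 10.06 and 9.80 (+2.75, SE 0.58, adjusted p = 0.036). NCAM1, the neural cell adhesion molecule of condensing dermis, was at 7.97 and 8.23 against 9.99 and 10.11 (+1.95, SE 0.31, adjusted p = 0.00601). Its other probe sets gave +0.71 and +0.41 without passing. The fourth, FLRT2, a ligand of UNC5 receptors, was named after its value was seen (+1.52).

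ALCAM, an adhesion molecule of the immunoglobulin family, was at 9.91 and 10.21 in E7fm and 6.85 and 7.21 in E9sm (-3.03, SE 0.66, adjusted p = 0.0418), with all 4 probe sets lower. TENM2, a teneurin, was at 8.89 and 9.34 against 6.69 and 6.27 (-2.64, SE 0.42, adjusted p = 0.0065), while a second probe set of it gave -0.40 without passing. LRRC4C, a netrin-G ligand, was lower too (-1.65, SE 0.33, adjusted p = 0.028), though its second probe set gave +0.0044. The cadherins CDH2 (-0.43) and CDH11 (+0.03), which hold mesenchymal cells together, did not pass.

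Calcium signalling, the pathway to which the study turned, had 4 genes of 94 that passed as higher and 0 as lower. The shares of all genes were 0.684% and 0.623%. With 18 arrays 4 passed as higher and 3 as lower, against 1.74% and 1.54%. The median difference of the list was +0.05. PLCB1, a phospholipase C that releases inositol trisphosphate, was at 5.76 and 5.92 in E7fm and 7.92 and 8.55 in E9sm (+2.39, SE 0.51, adjusted p = 0.0384), and 1 of its 8 probe sets passed. NFATC2, a transcription factor driven by calcineurin, was at 3.88 and 3.59 against 5.63 and 6.09 (+2.12, SE 0.42, adjusted p = 0.0239). VDAC1, the anion channel of the outer mitochondrial membrane, was at 7.38 and 7.34 against 9.27 and 9.64 (+2.09, SE 0.28, adjusted p = 0.00171). The fourth was the receptor EGFR (+1.75, adjusted p = 0.01), named after its value was seen.

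Calcium channels themselves, which the paper measured by RT-qPCR in epithelium, did not pass in mesenchyme. CACNA1D (+0.33) and CACNA1H (+0.27), pore subunits of voltage-gated channels, lay at 3.2 to 3.6 and 5.8 to 6.4, and CACNA2D1, an auxiliary subunit, was at 6.3 and 6.7 in E7fm and 7.4 and 7.7 in E9sm (+1.03, adjusted p = 0.19). PRKCB, a protein kinase C, was at 5.37 and 6.11 against 4.72 on both E9sm arrays (-1.02, SE 0.24, adjusted p = 0.067). SLC8A3, a sodium-calcium exchanger, was at 5.34 and 6.31 against 5.6 and 4.95 (-0.55, SE 0.30, adjusted p = 0.933), and its groups overlapped. By RT-qPCR, on skin collected separately from broiler embryos, the paper reported both PRKCB and SLC8A3 as higher in early feather mesenchyme. CALB2, the calcium buffer calretinin, was at 8.59 and 8.58 against 5.10 and 4.99 (-3.54) and passed with 18 and with 17 arrays, its adjusted p being 0.59 with 20.

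Of 82 cell cycle genes 0 passed by limma, with differences from -0.85 to +0.42 and a median of -0.17. In 71 of the 82 the difference lay below 0, whereas 6382 of all 13009 genes lay above 0. With 18 arrays 1 of the 82 passed as lower, the mitotic kinase AURKB (-0.67), against 1.54% of all genes. Of 21 IGF and insulin genes 1 passed, against 1.31% of all genes. It was the carrier IGFBP2, at 10.62 and 10.28 in E7fm and 11.80 and 11.56 in E9sm (+1.23, SE 0.22, adjusted p = 0.0138).

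Embryonic globins were lower in scale mesenchyme. Of 17 erythroid markers 3 passed as lower, all of them globins, 0 as higher and 14 did not pass, with a median of -0.82. The share that passed as lower was 0.623% over all genes. HBZ, an embryonic alpha-type globin, was at 10.99 and 9.75 in E7fm and 5.73 and 5.62 in E9sm (-4.70, SE 0.44, adjusted p = 4.98e-05). The beta-type globins HBBR, at 12.17 and 10.91 against 6.66 and 7.54 (-4.43), and HBE, at 13.27 and 12.42 against 8.77 and 8.75 (-4.08), were lower as well. The log2 of the summed erythroid levels was 15.92 and 15.56 on the E7fm arrays and 14.52 and 14.92 on the E9sm arrays, and its part in other differences was not tested.

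By their summed level endothelial markers separated the E9sm arrays rather than the groups. Their log2 summed level was 13.11 and 12.98 in E7fm, 11.80 on E9sm replicate 1 and 13.36 on replicate 2. CDH5, the cadherin that defines endothelium, was at 10.86 and 10.63 in E7fm and at 8.22 and 10.95 in E9sm. Of 27 endothelial markers 6 had a difference above 0, against 6382 of all 13009 genes, with a median of -0.33. Of the 27, 1 passed, against 1.31% of all genes. It was MMRN1, a multimerin, at 6.63 and 6.52 against 4.81 and 5.14 (-1.60, SE 0.28, adjusted p = 0.0128).

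Epidermal markers lay slightly higher in scale mesenchyme. Of 28, 24 lay above 0, against 6382 of all 13009 genes, with a median of +0.32. Their log2 summed level was 11.74 and 11.87 in E7fm and 12.08 and 12.05 in E9sm. None of the 28 passed by limma with 20 arrays, and with 18 arrays KRT7 (+2.56), CDH1 (+1.40) and ESRP2 (+1.34) did. KRT7, a keratin of simple epithelia, was at 4.63 and 4.35 against 6.84 and 7.26, far below its 11.43 and 11.88 in E7fe. Of the 39 skeletal muscle, 18 smooth muscle, 37 cartilage, bone and tendon, 34 nerve and glia, 19 leukocyte and 18 melanoblast markers 0 passed by limma with 20 arrays. Over all genes 1.31% passed with 20 arrays, and 1.74% as higher and 1.54% as lower with 18. With 18 arrays 3 skeletal muscle markers passed as lower. Of the cartilage, bone and tendon markers 5 then passed as higher, led by the keratocan KERA (+2.35). For smooth muscle 1 marker passed as higher, for nerve and glia 1 as higher and 2 as lower, and for melanoblasts 1 each way. The leukocyte list had 0. The part of these cells in the differences named above was not tested.

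**Figure D4:**
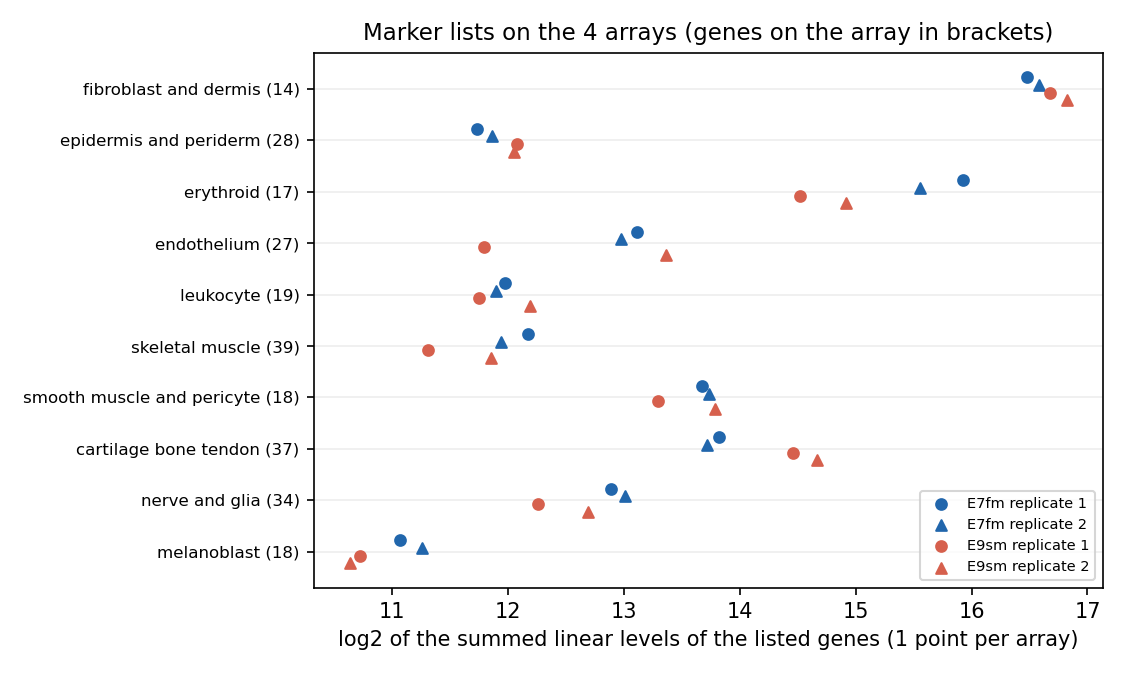
Log2 of the summed linear levels of each marker list (x axis) on the 2 E7fm arrays (blue) and the 2 E9sm arrays (red), circles for replicate 1 and triangles for replicate 2, with the number of genes on the array in brackets. Erythroid markers lie higher on both E7fm arrays, cartilage, bone and tendon markers higher on both E9sm arrays, and endothelial markers lie at 11.80 and 13.36 on the 2 E9sm arrays.

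Feather mesenchyme at E9 has the labelled age of the scale samples and was set beside both early groups. The scale end is the mean of both E9sm arrays, of which replicate 2 lay nearer to the E11sm arrays than to replicate 1, so that equal age is in doubt for that array. On a scale running from 0 at the E7fm mean to 1 at the E9sm mean, E9fm replicates 2 and 3 had a median position of 0.50 over the 89 higher genes and 0.59 over the 81 lower genes. Of the higher genes 28 lay below 0.25, 40 between and 21 above 0.75, and of the lower genes 18, 34 and 29. Since the same arrays chose the genes and set the ends of the scale, these positions are given as a description with no test.

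HOXA13 (-0.02), HOXD12 (-0.02), PAX9 (0.01), SALL1 (-0.05) and LHX9 (0.02) lay at the E7fm end, so that E9 feather mesenchyme had the same low levels as at E7. HOXC9 (0.03), SIM1 (0.01) and FOXP2 (0.04) lay there too, on the high side. TBX4 was at 5.29 and 5.35 in E9fm replicates 2 and 3, at a position of 0.17. By contrast LIX1 (1.0), SPON2 (1.09) and EGFR (1.15) had in E9 feather mesenchyme about the level of E9 scale mesenchyme or went past it, and CYTL1 (0.81) and DMRT1 (0.83) lay close to it. HBZ, NKX6-1, UTS2B and HPGD lay between, from 0.39 to 0.60.

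**Figure D5:**
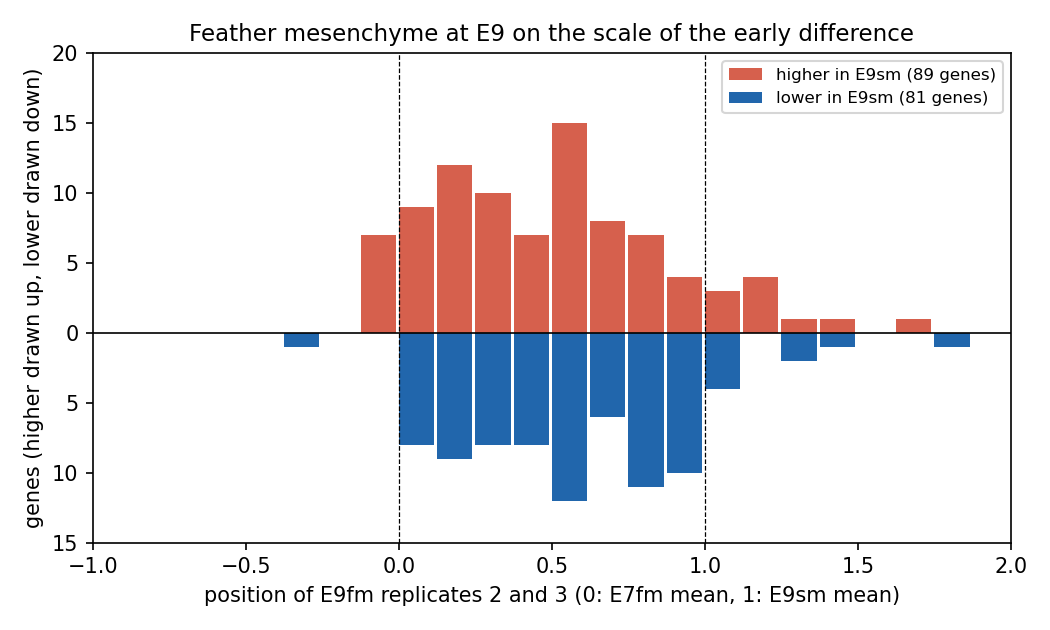
Position of feather mesenchyme at E9 (mean of replicates 2 and 3; x axis) between the E7fm mean (0) and the E9sm mean (1), as the number of genes per bin (y axis), for the 89 genes higher in E9sm (drawn up) and the 81 lower (drawn down). Both sets spread from the feather end at 0 to the scale end at 1, with medians of 0.50 and 0.59.

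The later pair, E11sm against E9fm, shares no array with the early pair. With 18 arrays 82 of the 89 higher genes had a late difference above 0, against 47.3% of all genes, and 70 of the 81 lower genes one below 0. In limma 44 and 28 of them passed late in the same direction and 0 in the opposite one, against 3.81% of all genes in either direction. Both differences use the same estimate of each gene's spread. Genes chosen for passing early tend to have a small spread and can pass late more readily, so these counts are a description. TBX4 (+5.01), SALL1 (+5.12), HOXA13 (+4.62) and HOXC9 (-4.32) had late differences of more than 4 log2 units, and the late difference of ZIC1 was -5.6. With the array labelled E9fm replicate 1 kept in, 2 genes passed late (0.0154%), 1 of them among the 89, and the late difference of TBX4 was +3.32. Smaller late differences were found for SPON2 (+1.28), IRX4 (-0.31), FBLN2 (+0.25), IGFBP2 (+0.24) and LIX1 (+0.04), none of which passed late.

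Whether the difference changed with stage was tested in the same fit over 20 arrays, and 8 genes passed (0.0615%), against 87 (0.669%) with 18 arrays. All 8 were among the 81 lower genes, and in each the late difference was less negative or above 0. The early difference that chose the 81 is part of this test, so the membership and direction are given as a description. LIX1 changed by +3.06 from early to late (SE 0.27, adjusted p = 6.4e-05), DMRT1 by +2.36 and UTS2B by +2.26. The others, named after their values were seen, were NXPH1 (+3.46), FRK (+2.94), EAF2 (+2.19), SLC18B1 (+2.07) and C2orf88 (+1.58).

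Whether the early difference differed from that in epithelium (E9se minus E7fe, on other arrays) was tested likewise, and 106 genes passed (0.815%). Among them were 29 of the 89 higher and 25 of the 81 lower genes, of which 27 and 18 had the opposite sign in epithelium. The mesenchyme difference that chose these genes is part of this test, so the overlap is given as a description. In epithelium alone, 3 of the 89 and 4 of the 81 passed in the same direction, and 4 and 3 in the opposite one. The share of all genes that passed in epithelium is not given here, so nothing is read from those counts. NCAM1 was at 6.70 and 6.46 in E7fe and 5.43 and 5.04 in E9se, lower in scale where mesenchyme was higher (difference between layers +3.29, SE 0.44, adjusted p = 0.00174). PLAU and SLIT2 likewise lay lower in scale epithelium. HPGD was at 8.19 and 8.34 in E7fe and 8.94 and 8.72 in E9se (difference between layers -4.99, SE 0.79, adjusted p = 0.00786). In scale skin it thus had a high level in epithelium and a low one in mesenchyme. TBX4, HOXA13, SALL1 and PAX9 lay between 3.30 and 4.75 in all early epithelial arrays, and the difference between layers did not pass with 20 arrays for any of them (adjusted p from 0.16 to 0.249). With 18 arrays 355 genes passed this test (2.73%), these 4 among them (adjusted p from 1.5e-06 to 5.5e-06). POSTN, nearly equal between the mesenchymes, was at 5.76 and 5.42 in E7fe and at 10.22 and 10.76 in E9se (difference between layers -4.86, adjusted p = 6.8e-06). TWIST2, a marker of mesenchyme, was at 3.51 and 3.57 in E7fe and at 7.36 and 5.88 in E9se, and its part in the differences between layers was not tested.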

How the data were processed

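RNA of mesenchyme from feather-forming (E7fm) and scale-forming skin (E9sm) had been hybridised to chicken genome arrays. The deposited values are log2 levels, which the authors computed from scanned probe signals by RMA (affy; versions not given in the sources used here): background correction, quantile normalisation and a summary of the probes of each set. All arrays thereby share nearly 1 distribution, with medians from 5.62 to 5.69, so a shift common to most genes would not be seen. RMA gives no detection call, so low levels may be background, and the number of arrays limits the precision.

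The 96 array controls among 38535 rows were dropped, leaving 38439 probe sets. The annotation of the array gave 1 symbol to 27168 of them (13009 genes), several to 177 and no symbol to 11094; for the 7334 genes with more than 1 probe set, the one with the highest mean over the 20 arrays was taken.

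Differences were tested with limma 3.58.1 (R 4.3.3), with 1 mean for each of 8 groups, eBayes and Benjamini-Hochberg adjustment over all probe sets, at a threshold of 0.05. No source says that the replicates were separate embryos, so the p-values measure only the spread between these samples. An exact test of 2 against 2 arrays could not reach the threshold and was not used. The fit was tested on simulated data with known changes in E9sm alone. Their noise was independent and normal, with 1 spread per probe set in all groups. Arrays at odds with their labels and unlike spreads between groups were not simulated, so the shares that follow hold for the simulated data. The fit recovered 34% of the changes of 1 log2 unit, 88% of those of 2 and 86% of those of 3. Of its 108 calls 3.7% were false. A gene with a difference near 1 log2 unit may thus fail to pass though it changed.

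The text names the 12 passing genes with the largest difference each way and no overlap, up to 3 passing genes each way of every list, and key genes of the lists, 141 in all. Members, lists and tests were chosen with earlier results of these data known. Alternatives were other sets of arrays, a trended and robust eBayes, a filter at a mean level of 5, median centring, a replicate block, and the mean over the probe sets of a gene. Deviations of same-numbered E7fm and E9sm arrays correlated at -0.333, and no source pairs them.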

Additional observations from a re-analysis of the deposited data

Results flagged for a closer look

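For 18 named genes the early scale minus feather difference differed between mesenchyme and epithelium by limma over 20 arrays. Taken with its sign, it was higher in mesenchyme for CDH13 (by 4.41 log2 units), LRRTM1 (3.82), NCAM1 (3.29), PLAU (3.13), NBL1 (3.06), SLIT2 (3.03), VDAC1 (2.46) and IGFBP2 (1.64). It was lower in mesenchyme for HPGD (-4.99), HBZ (-4.04), NKX6-1 (-3.43), DMRT1 (-3.12), LIX1 (-3.09), UTS2B (-3.09) and LOXL3 (-2.49). Of these, 15 passed in mesenchyme. The other 3 did not: BMPR1B (2.99) and FRZB (3.42), where the signed difference was higher in mesenchyme, and POSTN (-4.86), where it was lower. In epithelium BMPR1B (-2.18, adjusted p = 0.0156 by limma) and FRZB (-2.42, adjusted p = 0.0213) passed as lower in scale. In mesenchyme these 2 genes differed by +0.80 and +1.0 without passing. The globin HBZ was in both epithelial groups below its E7fm levels, at 5.66 and 5.92 in E7fe and 4.91 and 5.37 in E9se. LIX1, UTS2B and DMRT1 lay below 4.74 on every array of both early epithelia.

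For 3 named genes the difference changed between the early and the late pair of mesenchymes. The late minus early value was 3.06 for LIX1, 2.36 for DMRT1 and 2.26 for UTS2B. LIX1 was at 3.27 and 3.40 on E9fm replicates 2 and 3, as low as in the scale mesenchymes.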

How the results depend on the processing

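The 170 passing genes of the early mesenchyme comparison (89 higher, 81 lower) became 427 (227 and 200) with 18 arrays and 388 (175 and 213) with 17. A fit to the 4 mesenchyme groups alone gave 37 (19 and 18); the cause was not tested. Leaving out 1 array of E7fm or E9sm gave 25 to 102 genes, 9 to 64 higher and 16 to 38 lower; a group then holds a lone array, assumed to vary like the others. For the difference between layers 106 genes became 355 with 18 arrays and 365 with 17, and 34 to 84 without 1 array. For the change with stage 8 genes became 87 and 75, 4 to 9 without 1 array, 2 in the fit to the mesenchyme groups and 2 with probe sets below a mean level of 5 left out. No named gene that passed in either fit changed direction under these alternatives. Differences that passed in neither turned sign for up to 13 of the 141 named genes, the 13 without E9sm replicate 2, where FRZB went from +1.0 to -0.12, BMP2 from +0.03 to -0.46 and POSTN from +0.04 to -0.41. With 17 arrays lower genes outnumbered higher ones, where 20 arrays gave more higher ones. Of the 51 named genes that passed, many no longer did without 1 array, which leaves a lone array in a group, and fewer were lost with 17. In the fit to the mesenchyme groups 39 no longer passed, in the fit to E7fm and E9sm alone 10, and with 18 arrays 0. The other alternatives took 1 to 4 of the genes they tested. The filter at a mean level of 5 also left out LIX1, HOXD12, NFATC2, LOXL3, LHX9, UTS2B, SIM1 and HOXB4, which were then not tested.

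With the replicate number as a block 211 genes passed (112 and 99), 121 for the layers and 7 for stage, and 2 named genes were lost. The numbers show no pairing of samples, and with those of E9sm exchanged 205 genes passed (109 and 96).

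RMA levels carry no detection call, so how far the lowest levels stood above background was not tested.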
